A study of Mus musculus with 18 samples.

Results

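The CC chemokines measured here were 10 genes, Ccl2, Ccl3, Ccl4, Ccl5, Ccl6, Ccl7, Ccl9, Ccl12, Ccl22 and Ccl24. The genes were chosen with earlier results of these data known. Every probe set on the array whose platform annotation gives one of these symbols was then taken, whatever its signal. This gave 12 probe sets, out of 45101 on the array: 1 for each of 8 genes, and a pair each for Ccl6 and Ccl9. A gene is described below by its brightest probe set unless the other is named.

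The cells were macrophages grown for 7 days from bone marrow of IL-10-/- mice in medium conditioned by L cells, a fibroblast line used as a source of the growth factor CSF-1. All groups therefore lack a working Il10 gene, and wild-type and untreated cells were not analysed here. At the start of treatment the CSF-1 was left out. One arm received LPS, the bacterial cell wall product sensed by Toll-like receptor 4, at 100 ng/ml, and the other received the same LPS plus IL-10, a cytokine that restrains macrophage activation through STAT3, at 10 ng/ml. RNA was taken at 10, 20 or 30 min, with 3 arrays for each of the 6 combinations and 18 arrays in all. The 3 arrays of a group came from 3 whole experiments, called experiments 1, 2 and 3, which followed each other in time and matched the mice for age and sex. The sources used here leave age, sex and strain unnamed.

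CC chemokines are small secreted proteins, named for a pair of neighbouring cysteines, that bind G protein-coupled receptors and direct leukocyte migration. Ccl2, Ccl7 and Ccl12 are monocyte attractants that act through CCR2. Ccl3, Ccl4 and Ccl5 recruit monocytes and T cells, Ccl3 and Ccl5 in part through CCR1. Ccl6 and Ccl9 are CCR1 ligands of rodents made constitutively by myeloid cells. Ccl22 attracts CCR4-bearing T cells, and Ccl24 attracts eosinophils through CCR3. In macrophages the promoters of several of these genes are known targets of NF-kB after Toll-like receptor signalling.

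The 8 tested genes lie on mouse chromosome 11, where Ccl2 and Ccl7 are next to each other among coding genes, Ccl12 lies between Ccl11 and Ccl8, and Ccl5, Ccl9, Ccl6, Ccl3 and Ccl4 follow one another in that order. The RefSeq promoter table held 5 members, Ccl3, Ccl6, Ccl9, Ccl12 and Ccl22. It gives 250 bases before and 50 after the annotated start of each gene. The promoters of Ccl3, Ccl6 and Ccl9 are shown because these are consecutive genes, of which Ccl3 changed with time below and the others did not pass any test. Capitals mark matches, on either strand, to GGG, any 3 bases, then TTCC (NF-kB type), TTCNNNGAA (STAT type), TGANTCA (AP-1 type) and TATAAA, and the lines read 5′ to 3′ along the strand of the gene.
Ccl3 promoter (GRCm38.p6, chr11:83649329-83649628, minus strand): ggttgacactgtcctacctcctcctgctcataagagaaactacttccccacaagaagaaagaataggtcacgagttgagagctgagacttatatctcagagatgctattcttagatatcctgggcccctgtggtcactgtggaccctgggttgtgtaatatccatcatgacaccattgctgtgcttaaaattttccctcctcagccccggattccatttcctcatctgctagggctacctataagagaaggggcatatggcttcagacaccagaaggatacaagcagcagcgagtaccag
Ccl6 promoter (GRCm38.p6, chr11:83593038-83593337, minus strand): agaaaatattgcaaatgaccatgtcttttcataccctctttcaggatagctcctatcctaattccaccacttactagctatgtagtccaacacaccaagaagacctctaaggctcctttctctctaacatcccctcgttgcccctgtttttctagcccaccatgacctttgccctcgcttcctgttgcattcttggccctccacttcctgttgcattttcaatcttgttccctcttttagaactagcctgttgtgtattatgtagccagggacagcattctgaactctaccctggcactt
Ccl9 promoter (GRCm38.p6, chr11:83578587-83578886, minus strand): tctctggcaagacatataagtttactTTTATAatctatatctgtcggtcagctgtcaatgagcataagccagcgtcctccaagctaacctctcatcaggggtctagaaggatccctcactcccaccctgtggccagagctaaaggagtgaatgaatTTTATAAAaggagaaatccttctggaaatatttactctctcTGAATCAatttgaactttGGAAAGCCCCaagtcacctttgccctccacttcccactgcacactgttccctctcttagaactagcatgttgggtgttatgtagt
The Ccl9 window held 1 NF-kB-type match 35 bases before the start, on the reverse strand, 1 AP-1-type match and 3 TATAAA matches, of which a pair overlap. The Ccl12 window held 1 TATAAA match, 31 bases before the start, and the windows of Ccl3, Ccl6 and Ccl22 held no match to any of these letters. Of all 32851 promoter windows of the same length in the table, 5.6% held the NF-kB-type letters, 8.3% the STAT-type, 7.8% the AP-1-type and 13.6% TATAAA. The longest run shared by the Ccl6 and Ccl9 windows was 13 bases (gccctccacttcc), against 7 to 10 bases for the other pairs of the 5 windows.

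The deposited signals were on a linear scale and each array had been scaled to a trimmed mean of 500. Precision is limited by having 3 arrays in each group. A pair of arrays stood apart, those of LPS alone at 20 min in experiments 2 and 3, with lower quartiles of signal of 38.6 and 34.0 against 21.8 to 31.0 on the other arrays, and median Spearman correlations with the other arrays of 0.873 and 0.867 against 0.889 to 0.910. All 10 macrophage markers had signals above their array's median on all 18 arrays, among them Csf1r, Adgre1 and Cd68. Summed markers of T cells (42.2 to 343) and B cells (57.9 to 410.1) were dim. So were those of mast cells (80.9 to 201.5) and dendritic cells (199.6 to 512). Among T cell markers Cd3d had 3.4 to 31.6, while Cd8a had 10.7 to 185.6 and reached its array's median on 14 of 18 arrays. Stromal markers summed to 1647 to 3666, with Col1a1, Col1a2 and Col3a1 above the array's median on all 18 arrays. Of the granulocyte genes, S100a8 (2757 to 7701) and S100a9 (1303 to 4622) were bright. Mpo, Elane, Camp and Ltf had medians of 118 to 258, and Cxcr2 had 4.6 to 62.0. The summed signal of 7 granulocyte genes was 5046 to 12745. That sum was highest in experiment 2 (10514 to 12745, against 6490.4 to 8076 in experiment 1 and 5046 to 8313 in experiment 3), and its ranges overlapped between all 6 groups of treatment and time. In these bulk cultures more RNA per cell and more cells of one kind cannot be told apart.

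Of the 12 probe sets, 10 passed the filter on low values, which asked for at least 3 arrays with a signal no lower than their median. They belong to 8 genes. Ccl22 had a signal of 3.9 to 97.5 (median 11.7) and reached the array's median on 1 array, and Ccl24 had 4.3 to 85.1 (median 14.2) and reached it on 0. These were dim on nearly every array, have no test here, and without detection calls cannot be told from background. The remaining 8 genes were above the median on all 18 arrays.

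**Figure D1:**
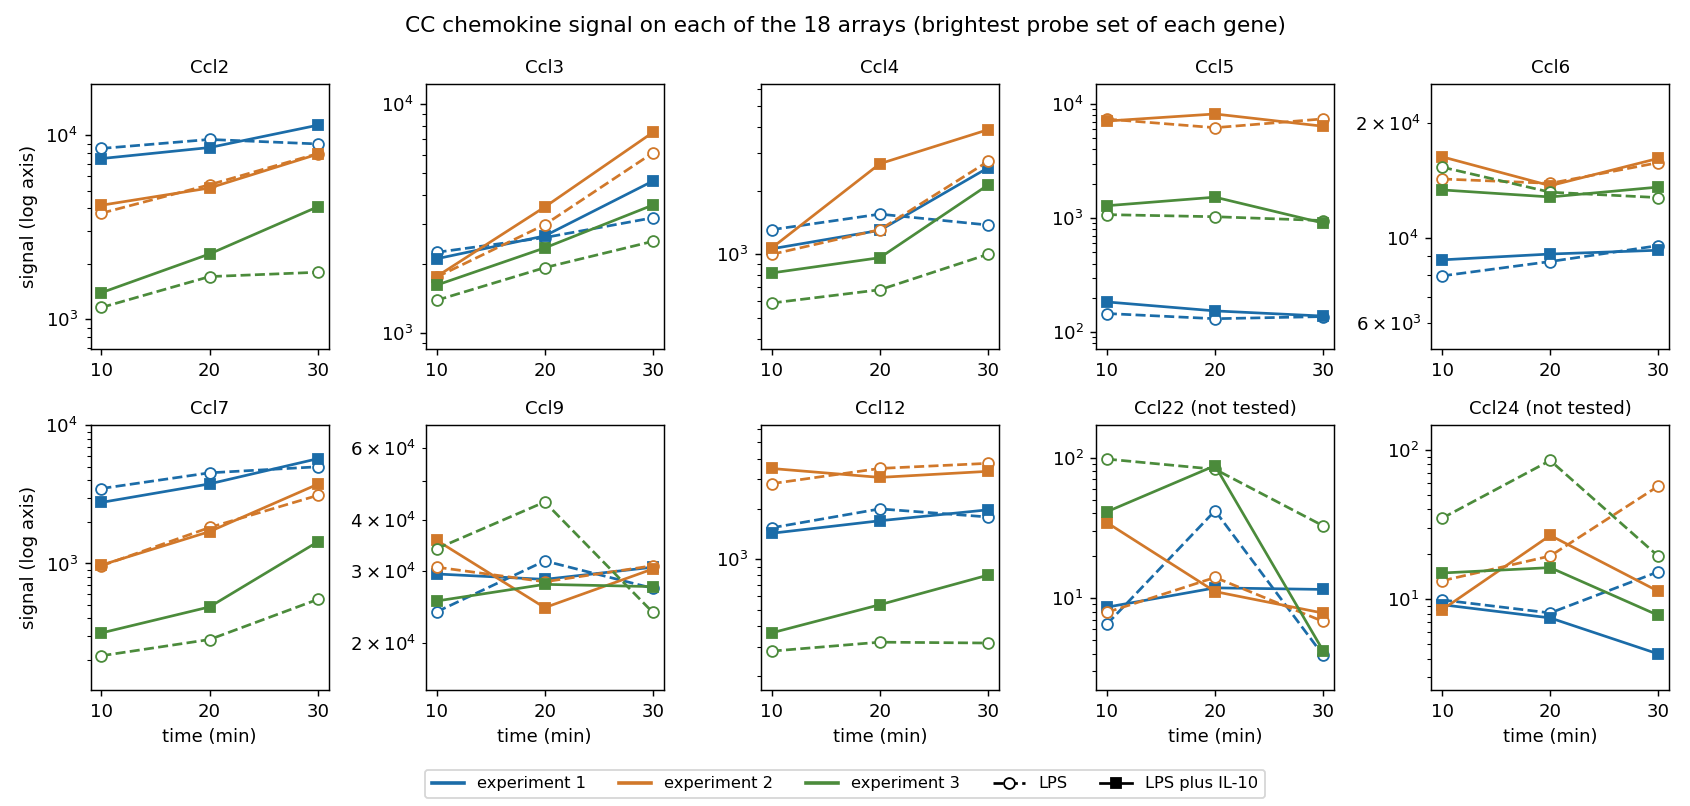
Signal of each CC chemokine (log axis, arbitrary units) against time in minutes, 1 point per array, for LPS (open circles, dashed) and LPS plus IL-10 (squares, solid) in the 3 experiments (colours). Every 30 min array of Ccl3 is above every 10 min array, and Ccl2, Ccl4 and Ccl7 are higher at 30 than at 10 min within each experiment and treatment, though Ccl2 and Ccl4 are lower at 30 than at 20 min with LPS alone in experiment 1. Ccl5 and Ccl12 separate by experiment, and Ccl22 and Ccl24 reach at most 97.5 and 85.1.

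Ccl3 and Ccl4 (also called MIP-1 alpha and beta) rose between 10 and 30 min with LPS plus IL-10, and Ccl3 with LPS alone too, in the fit that takes out differences between experiments. Ccl3 with LPS alone had signals of 2249.5, 1752 and 1389 at 10 min in experiments 1, 2 and 3, 2609, 2969 and 1928 at 20 min, and 3183, 6112 and 2512 at 30 min. With LPS plus IL-10 it had 2108, 1763 and 1617 at 10 min, 2653, 3546 and 2351.5 at 20 min, and 4604, 7509.8 and 3618 at 30 min. Every 30 min array of both treatments was above every 10 min array, and experiment 2 was the highest at 20 and 30 min. Group means went from 1797 ± 432 to 3936 ± 1914 with LPS (mean ± SD, n = 3) and from 1829 ± 252 to 5244 ± 2023 with LPS plus IL-10.

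Differences were tested with limma on log2(signal + 16), two-sided, over all 27110 tested probe sets with Benjamini-Hochberg adjustment. Since each experiment supplied 1 array to every group, the fit with the experiment as a block is given beside the fit without it. For Ccl3 the change from 10 to 30 min was 1.05 on the log2 scale with LPS (SE 0.32, adjusted p = 1.00; with the block SE 0.19, adjusted p = 0.032) and 1.45 with LPS plus IL-10 (SE 0.32, adjusted p = 0.304; with the block adjusted p = 0.000694). It was positive in 3 of 3 experiments in each: 0.50, 1.79 and 0.85 with LPS and 1.12, 2.08 and 1.15 with LPS plus IL-10. The blocked call with LPS alone was lost when any 1 experiment was left out (adjusted p = 0.168, 0.346 and 0.116 without experiments 1, 2 and 3), while that with LPS plus IL-10 was kept each time (adjusted p = 0.00442 to 0.0366). Without both LPS arrays at 20 min that stood apart, the blocked adjusted p with LPS alone was 0.0562.

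Ccl4 with LPS alone had signals of 1307, 1000.2 and 589.8 at 10 min, 1548, 1308 and 681 at 20 min, and 1375, 2744 and 1001.5 at 30 min in experiments 1, 2 and 3. With LPS plus IL-10 it had 1062, 1072 and 817.5 at 10 min, 1299, 2676 and 965 at 20 min, and 2560.5, 3872 and 2125 at 30 min. The groups overlapped with LPS alone and did not overlap with LPS plus IL-10. The log2 change was 0.75 with LPS (SE 0.43, adjusted p = 1.00, 0.792 with the block) and 1.49 with LPS plus IL-10 (SE 0.43, adjusted p = 1.00; with the block SE 0.23, adjusted p = 0.00401), positive in 3 of 3 experiments in each. In experiment 1 the change with LPS alone was 0.07, against 1.44 and 0.75 in experiments 2 and 3. The blocked call with LPS plus IL-10 was lost without experiment 2 (adjusted p = 0.063).

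The CCR2 ligands Ccl2 and Ccl7, adjacent genes, rose in the blocked fit of the arm with IL-10, on top of large differences between experiments. Ccl7 with LPS alone had signals of 3487, 960.6 and 214.8 at 10 min, 4529, 1821 and 281.5 at 20 min, and 5009, 3110.3 and 549 at 30 min. With LPS plus IL-10 it had 2765.5, 973.5 and 314 at 10 min, 3767, 1701 and 485 at 20 min, and 5729.8, 3745 and 1434 at 30 min. Within each experiment the signal increased at each step in both treatments, and the groups overlapped because experiment 1 began above where experiment 3 ended. The change from 10 to 30 min was 1.16 with LPS (blocked SE 0.26, blocked adjusted p = 0.189) and 1.70 with LPS plus IL-10 (blocked adjusted p = 0.00401), while without the block both had an SE of 1.15 and an adjusted p of 1.00. The blocked call was lost without experiment 2 (adjusted p = 0.337).

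Ccl2 (MCP-1) had signals of 8465, 3769.6 and 1160.5 at 10 min, 9474, 5379.7 and 1707 at 20 min, and 8958, 7941 and 1802.5 at 30 min with LPS. With LPS plus IL-10 it had 7461, 4164 and 1396 at 10 min, 8563.5, 5166 and 2266 at 20 min, and 11321, 7884 and 4085 at 30 min. Each experiment increased at each step with LPS plus IL-10, and the groups overlapped. The 10 to 30 min change was 0.59 with LPS (blocked SE 0.20, blocked adjusted p = 1.00) and 1.02 with LPS plus IL-10 (blocked adjusted p = 0.0293; without the block SE 0.83, adjusted p = 1.00). Without experiment 1, 2 or 3 the blocked adjusted p was 0.163, 0.411 and 0.107, so this call was lost each time. The change was then 1.23, 1.07 and 0.76. Since each of these fits also has fewer arrays, the loss does not show what an experiment contributed.

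Ccl12 (MCP-5), the third CCR2 ligand, did not pass in either fit. With LPS alone its signals were 1542, 2833 and 282 at 10 min, 2001, 3495 and 319 at 20 min, and 1790.0, 3748 and 315 at 30 min in experiments 1, 2 and 3. With LPS plus IL-10 they were 1430.2, 3491 and 362.5 at 10 min and 1976, 3357 and 804 at 30 min, and the groups overlapped in both treatments. The change with LPS plus IL-10 was 0.51 on the log2 scale (blocked adjusted p = 0.796) made of 0.46, -0.06 and 1.11. With LPS alone the change was 0.26 (blocked SE 0.22, blocked adjusted p = 1.00), from 0.15 to 0.40 over the experiments. The blocked 95% interval was 0.05 to 0.97 with LPS plus IL-10 and -0.20 to 0.71 with LPS.

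Counted together, the blocked fit called 1 of 10 CC chemokine probe sets higher at 30 than at 10 min with LPS alone, where 0.107% of all tested probe sets were called higher, and 4 of 10 with LPS plus IL-10, where 0.195% were. Without the block limma called 0 of 10 in each, with 0.0184% and 0.0443% of all tested probe sets called, and 1 and 2 of 10 reached an unadjusted p under 0.05, as did 1.35% and 2.31% of all. On the average of both arms it called 0 of 10 and 0.059% of all, with 2 of 10 and 2.72% of all at an unadjusted p under 0.05. Averaged over both treatments the blocked fit called 4 of 10 higher, against 0.35% of all, and these were Ccl2 (0.81), Ccl3 (1.25), Ccl4 (1.12) and Ccl7 (1.43). Without experiment 2 the blocked fit kept the call of Ccl3 and lost those of Ccl2 (adjusted p = 0.361), Ccl4 (0.075) and Ccl7 (0.143). On that average Ccl3 came close without the block (SE 0.22, adjusted p = 0.0561). Groups at 10 and 30 min did not overlap for 1 of 10 probe sets with LPS, against 2.03% of all probe sets in that direction, for 2 of 10 with LPS plus IL-10, against 2.21%, and for Ccl3 alone over the arrays of both treatments, against 0.166%. The 8 genes had a median change of 0.42 with LPS and 0.76 in the arm with IL-10, beside -0.02 and -0.03 over all tested probe sets.

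**Figure D2:**
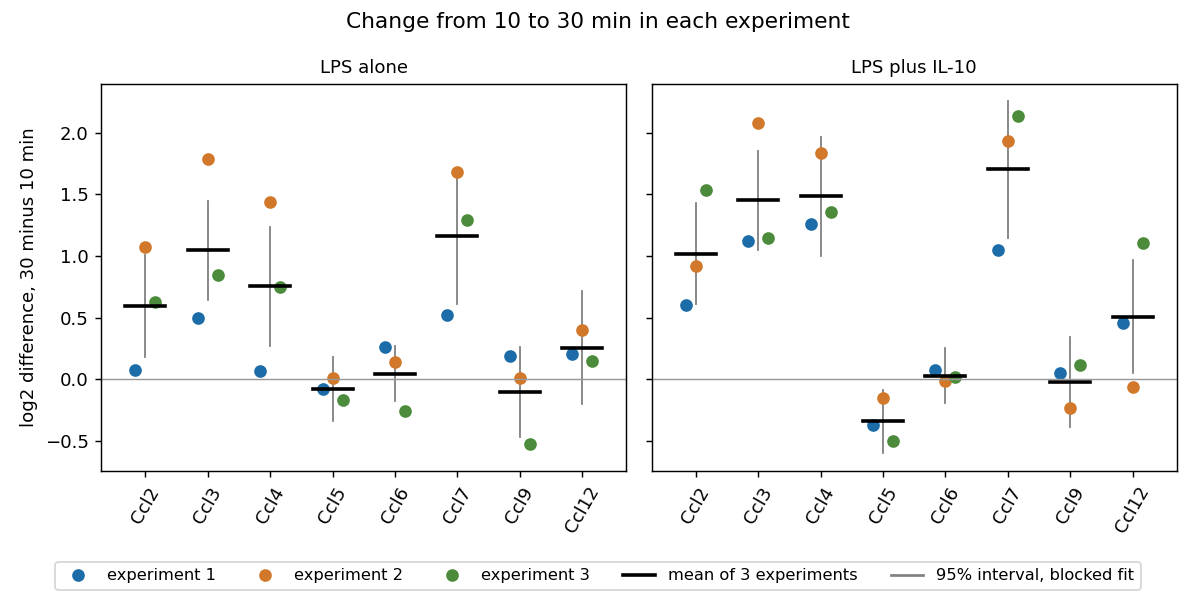
Log2 change from 10 to 30 min of 8 CC chemokine genes (vertical axis) under LPS alone (left) and LPS plus IL-10 (right), with 1 dot per experiment, the mean of 3 experiments as a black bar and the blocked 95% interval as a grey line. Ccl2, Ccl3, Ccl4 and Ccl7 lie above 0 in 3 of 3 experiments in both panels, and Ccl6 and Ccl9 lie around 0.

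The steps of 10 min gave no call among these genes in either fit. From 10 to 20 min with LPS alone the difference was 0.48 for Ccl3 (blocked adjusted p = 0.478), 0.55 for Ccl7 (0.541) and 0.41 for Ccl2 (0.541), and with LPS plus IL-10 it was 0.62, 0.61 and 0.40 (blocked adjusted p = 0.757, 0.896 and 0.918). From 20 to 30 min it was 1.09 for Ccl7 and 0.88 for Ccl4 with LPS plus IL-10 (blocked adjusted p = 0.328 and 0.432), and 0.61 and 0.48 with LPS alone. Limma called 0 of 10 probe sets in each of these 4 comparisons. An unadjusted p under 0.05 was reached by 2, 3, 2 and 6 of 10 in the blocked fit and by 0, 0, 0 and 2 without the block, in the order LPS 20 against 10, LPS plus IL-10 20 against 10, LPS 30 against 20 and LPS plus IL-10 30 against 20 min. Over all tested probe sets 9.17%, 5.44%, 13.1% and 7.16% reached it with the block and 3.32%, 1.52%, 4.81% and 1.91% without. The counts of 2 in the blocked fit thus lie near the share over all, and the count of 2 without the block lies above it. In all tested probe sets the blocked fit called 0.0148%, 0.0332%, 0.0184% and 0.0184%, and the fit without it 0%, 0.0111%, 0% and 0%, in the same order. Without both LPS arrays at 20 min that stood apart, the blocked change from 10 to 20 min with LPS was 0.53 for Ccl3, 0.91 for Ccl7 and 0.54 for Ccl2, and none passed.

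Ccl5 (RANTES) differed by experiment and hardly by time or treatment. Its signal was 131 to 184 on the 6 arrays of experiment 1, 6194 to 8168 on those of experiment 2 and 904 to 1525 on those of experiment 3. The ranges of the 3 experiments did not overlap, and the experiment means spanned 5.44 on the log2 scale. Of its sum of squares over the 18 arrays 99.3% lay between experiments, and 3 of the 27110 tested probe sets had a larger share there. The change from 10 to 30 min was -0.08 with LPS (blocked 95% interval -0.34 to 0.18) and -0.34 with LPS plus IL-10 (-0.60 to -0.08, blocked adjusted p = 0.654), the latter negative in 3 of 3 experiments.

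Ccl2, Ccl7, Ccl12 and Ccl6 also differed between experiments, in different orders. Ccl7 had 2766 to 5729.8 in experiment 1, 961 to 3745 in experiment 2 and 215 to 1434 in experiment 3, and experiment means spanned 3.16 on the log2 scale. Ccl2 had 7461 to 11321, 3769.6 to 7941 and 1160.5 to 4085, a span of 2.23, so both were highest in experiment 1 and lowest in experiment 3. Ccl12 had 1430.2 to 2001 in experiment 1, 2833 to 3748 in experiment 2 and 282 to 804 in experiment 3, with no overlap and a span of 2.98. Ccl6 had 7961 to 9560.1 in experiment 1, below the 13722 to 16340.1 of experiment 2 and the 12773 to 15351 of experiment 3. The share of the sum of squares between experiments was 83.0% for Ccl2, 78.4% for Ccl7, 93.8% for Ccl12 and 92.5% for Ccl6, against a median of 37.9% over all tested probe sets. The granulocyte marker sum, highest in experiment 2, differed between experiments as well, and its part in these differences was not tested.

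Time took the largest share for Ccl3 (65.2%, with 18.6% for the experiment) and for Ccl4 (41.4%, with 31.6%). Only 22 of 27110 tested probe sets had a larger share for time than Ccl3, and 516 had a larger one than Ccl4, where the median was 7.0%. For Ccl2 and Ccl7 time took 10.4% and 15.9%. Treatment took 9.6% for Ccl4, 3.2% for Ccl3 and at most 2.2% for the brightest probe sets of the other 6 tested genes. Time by treatment took 21.7% and 20.1% on the brightest and second Ccl9 probe sets, where the rest took 70.4% and 50.6%. It took at most 4.4% (Ccl4) for the other tested genes. On the second Ccl9 probe set time took 24.6%. These shares describe the 18 arrays and carry no test.

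**Figure D3:**
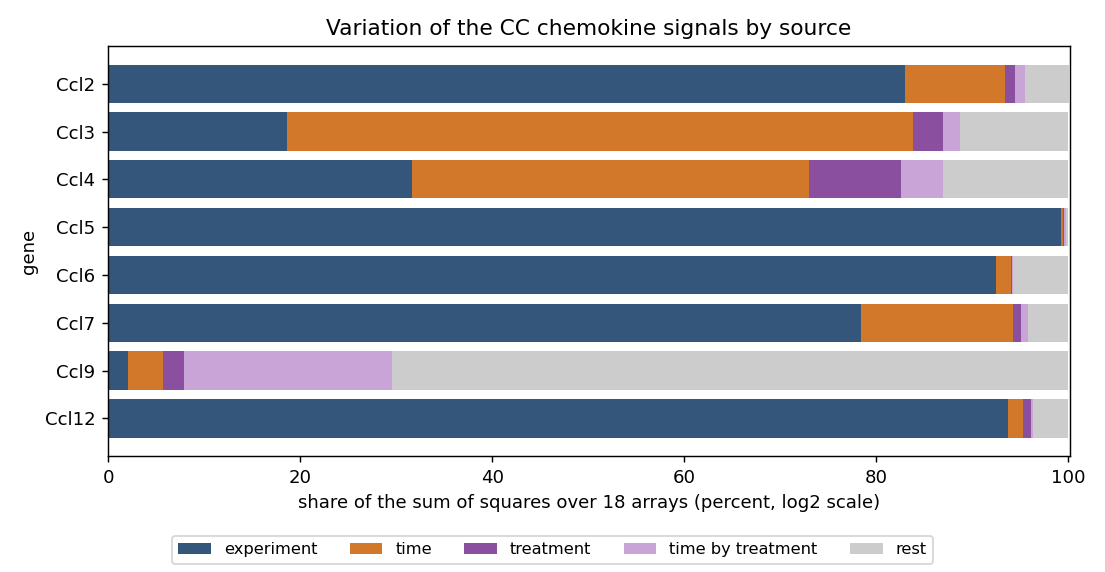
Share of the sum of squares of log2(signal + 16) over the 18 arrays (percent, horizontal axis) that lies between experiments, times, treatments, in time by treatment, and in the rest, for the brightest probe set of 8 CC chemokine genes. The experiment takes 99.3% for Ccl5 and 93.8% for Ccl12, and time takes 65.2% for Ccl3.

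The bright, constitutive ligands Ccl9 and Ccl6 passed no test. Ccl9 had a signal of 23797 to 44371 on its brightest probe set and 18442 to 29143 on the other, and its experiment means lay within 0.07 and 0.05 of each other on the log2 scale. Its change from 10 to 30 min was -0.11 with LPS (blocked 95% interval -0.47 to 0.26) and -0.02 with LPS plus IL-10 (-0.39 to 0.35), and both values change sign under quantile normalisation (0.03 and 0.03). On the second probe set the change was 0.03 with LPS (-0.24 to 0.30) and 0.12 with LPS plus IL-10 (-0.15 to 0.39), the latter positive in 3 of 3 experiments. The highest value, 44371, was the LPS array of experiment 3 at 20 min, one of those that stood apart. The difference for Ccl6 was 0.05 with LPS (blocked 95% interval -0.17 to 0.27) and 0.03 with LPS plus IL-10 (-0.19 to 0.25), and that of its second probe set was -0.04 and 0.12. The intervals of the brightest Ccl6 probe set thus reach from -0.19 to 0.27.

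Adding IL-10 gave no called difference in a CC chemokine at any time. At 10 min the 8 genes differed by 0.03 (Ccl9) to 0.18 (Ccl12) on the log2 scale (LPS plus IL-10 minus LPS), a median of 0.07 beside 0.00 over all tested probe sets, and none was higher in 3 of 3 experiments. At 20 min they differed by -0.34 (Ccl9) to 0.42 (Ccl4), a median of 0.12 beside -0.01. Under quantile normalisation Ccl9 turned to -0.03 at 10 min and to 0.01 at 20 min. Ccl5 was higher with IL-10 in 3 of 3 experiments at 20 min, by 0.20, 0.40 and 0.56 (mean 0.39, blocked SE 0.12, blocked adjusted p = 0.578). Ccl3 was also higher in 3 of 3, by 0.02, 0.25 and 0.28, and Ccl9 was lower in 3 of 3 on both probe sets, with differences of -0.15, -0.21 and -0.67 on the brightest. Without both LPS arrays that stood apart the blocked value for Ccl5 was also 0.39, from the 1 LPS array left (blocked adjusted p = 0.904). For Ccl4 that value went from 0.42 to -0.02, for Ccl2 from 0.07 to -0.07 and for Ccl7 from 0.13 to -0.23.

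At 30 min Ccl2, Ccl3, Ccl4, Ccl7 and Ccl12 had higher means with IL-10 than without, and none passed. Ccl4 had 1375, 2744 and 1001.5 with LPS and 2560.5, 3872 and 2125 with LPS plus IL-10 in experiments 1, 2 and 3. It was higher in 3 of 3, by 0.89, 0.49 and 1.07 (mean 0.82, blocked SE 0.23, blocked 95% interval 0.34 to 1.30, adjusted p = 1.00 with and without the block), and the groups overlapped. Ccl3 was higher by 0.53, 0.30 and 0.52 (mean 0.45, blocked interval 0.05 to 0.85) and Ccl7 by 0.19, 0.27 and 1.36 (0.61, 0.05 to 1.16). Ccl2 differed by 0.34, -0.01 and 1.17 (0.50, 0.09 to 0.91) and Ccl12 by 0.14, -0.16 and 1.31 (0.43, -0.03 to 0.89). For Ccl2, Ccl7 and Ccl12 the value of experiment 3 was by far the highest. Ccl5 differed by -0.09 (-0.35 to 0.17), Ccl6 by 0.03 and Ccl9 by 0.12, and under quantile normalisation the last 2 turned to -0.01 and -0.03. These intervals are not adjusted for the number of probe sets.

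Limma called 0 of 10 CC chemokine probe sets for IL-10 at 10, 20 and 30 min, with and without the block. An unadjusted p under 0.05 was reached by 0, 1 and 4 of 10 in the blocked fit and by 0 at each time without the block. Over all tested probe sets 3.58%, 7.81% and 2.81% reached it with the block and 1.14%, 3.01% and 1.16% without, so the count of 1 at 20 min lies near the share over all. Over all tested probe sets the blocked fit called 0%, 0.0184% and 0.0443%, and the fit without it 0%, 0.00738% and 0.0111%. Of the 8 genes 7 had a positive difference at 30 min, where 47.6% of all tested probe sets did. The 8 genes had a median of 0.44, beside -0.01 over all tested probe sets. Among the 7, Ccl6 (0.029) and Ccl9 (0.119) turned to -0.005 and -0.028 under quantile normalisation. After each experiment's mean was subtracted, Ccl2, Ccl3, Ccl4 and Ccl7 had Pearson's r of 0.87 to 0.96 with one another over the 18 arrays. The count of 7 therefore does not stand for 7 separate results. The interaction of treatment with time (10 against 30 min), which tests whether the time courses differ, was 0.73 for Ccl4 (blocked 95% lower bound 0.05, adjusted p = 1.00 with and without the block), 0.54 for Ccl7, 0.43 for Ccl2 and 0.41 for Ccl3, and 0 of 10 passed in either fit (1 of 10 reached an unadjusted p under 0.05 in the blocked fit, where 2.45% of all did, and 0 of 10 and 0.981% of all without it), where 0.0184% of all were called with the block and 0.00369% without. The calls under LPS plus IL-10 that were not made under LPS alone are therefore not shown to differ between the treatments.

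**Figure D4:**
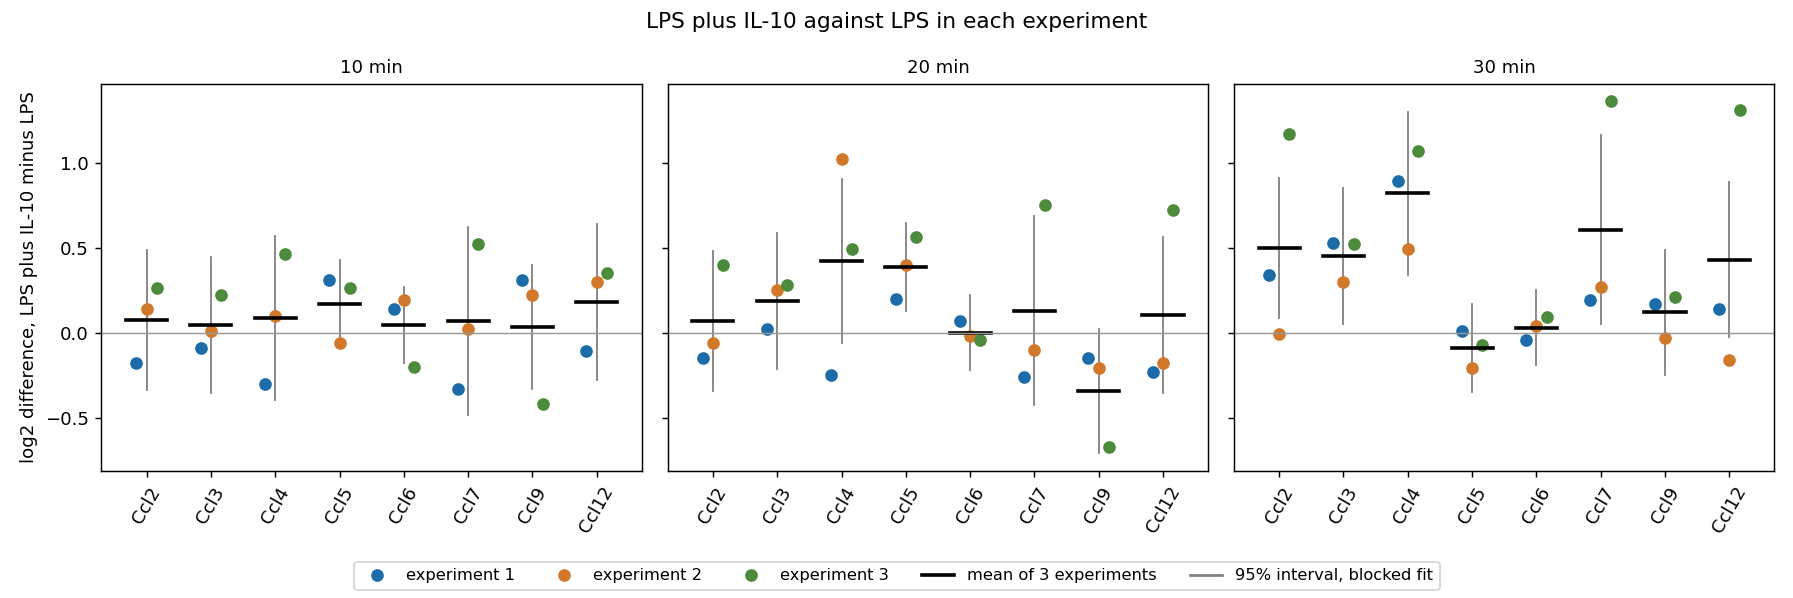
Log2 difference between LPS plus IL-10 and LPS (vertical axis) at 10, 20 and 30 min for 8 CC chemokine genes, with 1 dot per experiment, the mean as a black bar and the blocked 95% interval as a grey line. At 30 min Ccl3, Ccl4 and Ccl7 lie above 0 in 3 of 3 experiments, and experiment 3 is the highest dot for Ccl2, Ccl4, Ccl7 and Ccl12.

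After each experiment's mean was subtracted, Ccl2, Ccl3, Ccl4 and Ccl7 followed one another over the 18 arrays, which share RNA and scaling between genes. Pearson's r was 0.96 between Ccl2 and Ccl7, 0.93 between Ccl3 and Ccl4, 0.91 between Ccl7 and each of Ccl3 and Ccl4, and 0.87 between Ccl2 and each of Ccl3 and Ccl4. Ccl12 had r of 0.83 with Ccl2, 0.74 with Ccl7, 0.61 with Ccl4 and 0.51 with Ccl3. Ccl5 had r from -0.39 to -0.15 with the other 7, and Ccl9 had r from -0.31 to -0.13 with all but Ccl6 (0.47). The tested members were left out of the search for the most similar genes. Among the 12476 genes outside them, those most like Ccl3 on the same measure were Ier3 (r = 0.954), Zfp36 (0.936) and Tnfsf9 (0.918). Ier3 and Zfp36 were also among the 3 most like Ccl2, Ccl4 and Ccl7, joined by Gadd45g for Ccl2 (0.837), Socs3 for Ccl4 (0.861) and Junb for Ccl7 (0.913). For Ccl12 they were G530011O06Rik (0.817), Gadd45g (0.796) and Irf1 (0.724), for Ccl5 Macf1 (0.869), Ubqln4 and Slc35f5, and for Ccl6 Gabarap (0.896), C1qc and S100a10. Those most like Ccl9 were very abundant transcripts, Rpl10a, Rps24 and Tmsb4x, each at 0.978.

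Among other ligands and receptors 1 gene passed a test. Of 13 other CC ligands, 8 had a probe set of their own, 4 were tested, and 0 were called in any of the 11 comparisons in either fit. Ccl8, the ligand gene beside Ccl12, had 93.1 to 129 in experiment 1, 845 to 1064 in experiment 2 and 223 to 364 in experiment 3. Of 16 receptors and decoy receptors 8 were tested. Ccrl2, a chemokine receptor-like gene that does not signal, went from a mean of 279 to 686 with LPS between 10 and 30 min. The log2 change was 1.23 (blocked adjusted p = 0.00927), and 0.81 on the average of both treatments (blocked adjusted p = 0.00756). With LPS plus IL-10 Ccrl2 went from 300 to 407 (0.39, blocked adjusted p = 0.888). It was the 1 receptor called, with the block, and Ccr1 (383 to 1209) and Ccr2 (702 to 2583), the receptors of several members, passed no test.

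Of 21 receptor signalling genes 20 were tested, and 1 gene was called in the blocked fit, with LPS alone and on the average of both treatments. That fit called 1 of 40 probe sets of this list and 1 of 14 of the receptors higher in both of these comparisons. Over all tested probe sets it called 0.107% higher with LPS alone and 0.35% on the average. Rgs1, an inhibitor of G protein signalling downstream of chemokine receptors, went from 1334 to 4006 with LPS alone (log2 change 1.55, blocked adjusted p = 0.00771; 1.03 and 0.00574 on the average) and from 1395 to 2209 with LPS plus IL-10 (0.52, blocked adjusted p = 0.857). At 30 min its difference with IL-10 was -0.94 (blocked adjusted p = 0.855) and that of Ccrl2 was -0.67 (blocked adjusted p = 1.00), values below 0 where those of Ccl2, Ccl3, Ccl4 and Ccl7 were above 0, and neither passed. Over all its arrays Rgs1 had 1686 to 3193.5 in experiment 1, 1540.5 to 6825 in experiment 2 and 590 to 2000 in experiment 3. Ccrl2 had 162 to 391, 296 to 1004 and 267 to 662. For the interaction of treatment with time neither fit called a gene of the 3 lists. The time courses of Rgs1 and Ccrl2 are therefore not shown to differ between the treatments. Without the block limma called none of the 3 lists' genes in these 11 comparisons.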

How the data were processed

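Gene expression was measured on 18 single-colour Affymetrix arrays of biotin-labelled cRNA. The authors deposited linear-scale intensities, made with GCOS 1.4 per the submitters' processing notes, with the signal algorithm and settings not given in the sources used here. They arrived scaled to a mean of 500 after trimming 2 percent at each end, so a change of total RNA per cell cannot be seen, and detection calls were not used here. Of 45101 probe sets, 64 controls were left out, and of the rest 34945 carried 1 symbol, 932 several and 9160 none in the platform annotation, which can be old. No symbol changed on matching to the RefSeq gene table. Any pair of arrays shared at most 104 equal values, so none is a duplicate.

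Signals were turned into log2(signal + 16), which understates fold changes of dim probe sets. Probe sets reaching the median signal of at least 3 arrays were tested (27110, of 12527 genes). The fits used R 4.3.3 and limma 3.58.1 (lmFit, then eBayes with a trend on intensity) on the 18 arrays together, with group means alone (12 residual degrees of freedom) or with the experiment added as a block (10), in 11 comparisons across all tested probe sets at a Benjamini-Hochberg adjusted p of 0.05. The script was tested on simulated data.

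The labels make each replicate number 1 complete experiment. Deviations from group means correlated at 0.20 to 0.64 for 45 pairs of arrays that share a number and at -0.47 to 0.065 for 90 pairs that do not, so the numbers pair the samples. The fit without the block counts differences between experiments as spread.

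The members, lists and alternatives were chosen with earlier results of these data known. The genes named are all members, by brightest probe set, called members of the lists, and the 3 genes outside the members most correlated with each tested member. Ccl8, Ccr1, Ccr2 and the interferon-induced genes were picked after their values were seen. Alternatives were pseudocounts of 1 and 64, quantile normalisation, a filter at the 75th percentile or none, only the groups compared, the block, and leaving out experiments or the LPS arrays at 20 min that stood apart. Promoters are RefSeq's, GRCm38.p6.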

Additional observations from a re-analysis of the deposited data

Results flagged for a closer look

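The second Ccl9 probe set, the dimmer of the pair, had opposite directions of the IL-10 difference at 20 and 30 min in every experiment: -0.39 to -0.06 on the log2 scale at 20 min and 0.02 to 0.16 at 30 min (n = 3). The difference between those effects was 0.34 (SE 0.19, limma adjusted p = 1.00, 0.915 with the block), so it did not pass. Under quantile normalisation the value at 30 min turned to -0.06.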

How the results depend on the processing

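With the replicate block the count of called CC chemokine probe sets went from 0 to 1 with LPS alone, from 0 to 4 with LPS plus IL-10 and from 0 to 4 on the average of both, all 30 against 10 min. It stayed at 0 in the other 8 comparisons. With the block, leaving out experiments 1, 2 and 3 in turn gave 0 to 0 calls with LPS alone, 1 to 3 with LPS plus IL-10 and 1 to 4 on the average, where without experiment 2 only Ccl3 was called. Without the block, leaving out any experiment gave 0 calls. Leaving out the LPS array of experiment 2 or 3 at 20 min gave 1, 4 and 4 calls with the block, and leaving out both gave 0, 4 and 4. With the stricter 75th percentile filter (12895 tested) 1 was called, Ccl3, on the average (adjusted p = 0.0391). The cause of these moves was not tested. Over 2090 values of a probe set in a comparison under 19 alternatives, 52 crossed the threshold to a call. Of these, 1 came from the 75th percentile filter and the rest from settings with the block. The fit without the block, to which these are compared, had called none. A value could therefore only cross towards a call, and no called value could be lost or change sign. Among uncalled values 119 changed sign. With 3 arrays a group, small changes of Ccl6, Ccl9 and Ccl12 could not be detected.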

Other observations

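The difference in Ccl5, Ccl8 and Ccl12 between experiments was set beside genes known to be induced by interferon, a list written after those values were seen. Irf7, the interferon regulatory factor, had 10332 to 12922 on the 6 arrays of experiment 2, against 1995 to 2890 in experiment 1 and 2063 to 2988 in experiment 3. Oasl1 had 1284.5 to 1472 in experiment 2, against 689 to 914.5 and 635 to 1116. Ifit1, also induced by interferon, was highest in experiment 3 (2634 to 4512, against 1259 to 1564.5 and 1740 to 2154), as was Rsad2 (4445 to 7499, against 3717 to 4355 and 2322 to 3740). Usp18 had medians of 2549, 3295 and 3173 in experiments 1, 2 and 3 and Cxcl10 1132, 1703 and 1692, while Ifit2 had 1862, 1657 and 3044, Ifit3 had 1611, 2600.4 and 2884, and Mx1 had 458, 436 and 529.95 with overlapping ranges. Over the whole list of 9 measured genes, 4 (Irf7, Oasl1, Usp18 and Cxcl10) had their medians in the order of Ccl5, highest in experiment 2 and lowest in experiment 1. The other 5 had their highest median in experiment 3. For Usp18 (3133 to 3506 and 1793 to 3240) and Cxcl10 (1352 to 2777 and 1336 to 2009) the ranges of experiments 2 and 3 overlapped. For all 4 genes with the order of Ccl5 the ranges of experiments 1 and 3 overlapped, unlike those of Ccl5. For Ifit3 the range of experiment 3 (1705.5 to 3270) enclosed that of experiment 2 (2409 to 2831). Ccl12, highest in experiment 2 and lowest in experiment 3, had an order that none of the 9 had. The share of all tested probe sets with the order of Ccl5 is not given here. The part of interferon in these differences was not tested.

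The fractalkine receptor gene Cx3cr1, a macrophage marker of the fixed list, had 3017 to 4029 in experiment 3, against 337 to 528 in experiment 1 and 133 to 453 in experiment 2.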
